A study of Mus musculus with 6 samples.

Results

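The genes described here are 37 genes of autophagy and mitophagy, taken by symbol from a deposited table of read counts for 25628 gene symbols. All 37 were in the table and all 37 passed the filter on low counts that left 14158 genes for testing. The cells were mouse TgSpi1 erythroleukaemic cells, numbered 722 in the series, which are leukaemic erythroid blasts of bone marrow origin. They carry a transgene of Spi1, the gene of the transcription factor PU.1, and an shRNA against Spi1 that doxycycline induces. Both groups carry both constructs and both were grown with erythropoietin. The untreated group had 3 libraries with the shRNA not induced, and the other group had 3 libraries from cells given doxycycline for 48 h. The labels call the 3 libraries of each group biological replicates without saying what separated them, so the p-values measure the spread between these cultures of a single numbered line, which may be in part technical. Every library of the second group received doxycycline, so a response to the drug and a response to the lower Spi1 level cannot be told apart.

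Autophagy is the process in which a cell wraps part of its contents in a double membrane, the autophagosome, and delivers it to the lysosome. The ULK1 kinase complex starts it, a class III phosphatidylinositol 3-kinase complex marks the membrane, ATG9A, the ATG2 proteins and the WIPI proteins supply and bind lipid, and linked conjugation reactions attach ATG8 proteins, of the LC3 and GABARAP families, to the membrane. Receptors then tie cargo to the ATG8 proteins. In red cell development the same machinery removes mitochondria before the cell enters the blood, and BNIP3L, also called NIX, is the receptor best known for this step.

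None of the 37 genes passed the test between the groups, where 2.59% of all genes tested did. The changes seen within pairs of libraries of equal replicate number were small and went both ways. With the replicate number as a block in the fit, Wipi1, Ulk2, Atg4b, Atg5 and Atg12 were higher with doxycycline and Atg3, Gabarapl2, Pik3c3 and Atg2a were lower, with log2 fold changes between -0.47 and 0.64. These 9 are 24.3% of the 37, where the same fit called 25.8% of all genes tested. None of the 9 was called once both libraries of replicate number 1 were left out, a fit that called 8.67% of all genes. The mitophagy receptor Bnip3l and the autophagy kinase Ulk1 did not pass in either fit. The largest levels per length belonged to Gabarapl1, Gabarap and Bnip3l, in that order.

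Spi1 itself, which the shRNA targets, stood at 415, 353 and 329.6 CPM untreated and 84.8, 80.4 and 62.1 CPM with doxycycline and fell in each pair, with a log2 fold change of -2.27 (SE 0.17, adjusted p = 0.0030) without the block and -2.28 (SE 0.093, block adjusted p = 4.3e-07) with it. Total counts lay between 78926663 and 101276319 per library. CPM are counts scaled to a library size of 1000000 after TMM, edgeR's trimmed mean method, and log2 fold changes set the doxycycline libraries over the untreated ones. Of the erythroid markers 10 of 10 were in the table and tested, and their summed level, here scaled by the plain library total, was between 3624 and 4950 CPM untreated and between 4264 and 6421 CPM with doxycycline. Slc4a1, the anion exchanger of red cells, stood at 14.4, 39.9 and 100.02 CPM untreated and 29.6, 96.0 and 224 CPM with doxycycline, so it differed more between replicate numbers than between the groups. Of 10 macrophage and monocyte markers 9 were in the table, and their sum was between 22.6 and 31.5 untreated and between 17.3 and 22.9 with doxycycline, most of it Ccr2. The 10 neutrophil markers summed to between 0.509 and 43.4 untreated and between 0.164 and 11.5 with doxycycline, highest in replicate 2 of both groups. In untreated replicate 2 S100a9, S100a8, Ngp, Ltf and Camp stood at 14.8, 11.2, 8.95, 5.06 and 2.60 CPM. In replicate 1 of both groups each of these was at most 0.0226 CPM. Elane, Mpo, Ly6g, Prtn3 and Ctsg were at most 0.406 CPM in every library. The 5 B cell markers summed to at most 1.63, the 3 T and NK cell markers in the table to at most 0.866 and the 4 stromal and endothelial markers in the table to at most 0.342. The sum of the 5 megakaryocyte markers, mainly Pf4, was lower with doxycycline in each pair. It was 299, 208 and 64.4 CPM in untreated replicates 1, 2 and 3 against 157, 119.7 and 36.5 CPM in the doxycycline replicates of the same numbers. Of the 5, Gp1ba alone rose in a pair, number 2, from 8.81 to 9.42 CPM. The part of such transcripts in the changes within pairs given below was not tested. In bulk RNA fewer cells of a type and less RNA per cell cannot be told apart.

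Promoter sequences of 4 genes that passed with the block are shown because they pair genes that moved in opposite directions with and without a shared motif. They come from RefSeq on GRCm38.p6, lie within the 250 bases before the RefSeq start, and are written 5′ to 3′ on the strand of the gene. Bases that GENCODE M21 places in an exon were left out, which leaves 78 bases for Atg3 and 207 bases for Wipi1. The exons of Atg3 begin earlier in GENCODE, and its neighbour Slc35a5 starts on the other strand. Wipi1 starts further upstream in GENCODE, at 109611967 on the minus strand, so its printed stretch lies inside the gene as annotated there. Capitals mark CACGTG, the core of the E-box that the autophagy and lysosome regulators TFEB and TFE3 can bind. Atg3, which was lower, holds it with first bases at positions -94 and -71 from the RefSeq start, and Atg5, which was higher, holds it at -14. The windows of Gabarapl2, which was lower, and Wipi1, which was higher, hold none.
Atg3, chr16:45158707-45158784, plus strand: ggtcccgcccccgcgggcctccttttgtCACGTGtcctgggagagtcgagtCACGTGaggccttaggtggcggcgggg
Atg5, chr10:44268089-44268338, plus strand: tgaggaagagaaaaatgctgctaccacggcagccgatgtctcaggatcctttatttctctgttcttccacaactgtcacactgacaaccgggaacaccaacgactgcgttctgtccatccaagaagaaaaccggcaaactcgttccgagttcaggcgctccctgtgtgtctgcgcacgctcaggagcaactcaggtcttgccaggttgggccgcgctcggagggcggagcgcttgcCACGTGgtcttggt
Gabarapl2, chr8:111940453-111940702, plus strand: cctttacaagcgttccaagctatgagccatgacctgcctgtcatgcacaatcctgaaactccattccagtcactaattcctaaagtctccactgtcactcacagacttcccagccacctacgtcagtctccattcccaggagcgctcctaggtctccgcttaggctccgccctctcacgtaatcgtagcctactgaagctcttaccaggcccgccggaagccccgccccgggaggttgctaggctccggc
Wipi1, chr11:109611433-109611639, minus strand: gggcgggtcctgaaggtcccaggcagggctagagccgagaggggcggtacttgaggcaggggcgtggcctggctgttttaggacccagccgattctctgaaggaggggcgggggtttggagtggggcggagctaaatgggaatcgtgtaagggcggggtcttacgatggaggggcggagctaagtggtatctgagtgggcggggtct

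Whole RefSeq windows of 300 bases, 250 before and 50 after the start, were searched for 30 of the 37 genes, 33 windows in all. CACGTG, which reads the same on both strands, was in 5 of the 33 windows (15.2%), those of Atg3, Atg5, Atg7, Atg14 and Bnip3, against 7.15% of all 32851 windows. The longer palindrome around this core, known as the CLEAR element of lysosomal genes, was in none of the 33 windows and in 0.326% of all. GAGGAAGT, a sequence that PU.1 binds, was searched on both strands and was in none of the 33 windows and in 3.2% of all. AGATAA, to which the product of Gata1 can bind, was searched likewise and was in 2 windows, those of Atg4a and Atg4d (6.06%), and in 11.2% of all. The windows of these genes had a median GC content of 60.0%, against 52.7% over all windows. Their median ratio of observed to expected CpG, a C followed by a G, was 0.79, against 0.38 over all windows. CACGTG itself holds a CpG, and the part of base content in its share was not tested. A match is only a run of letters, and these windows leave out any more distant element.

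**Figure D1:**
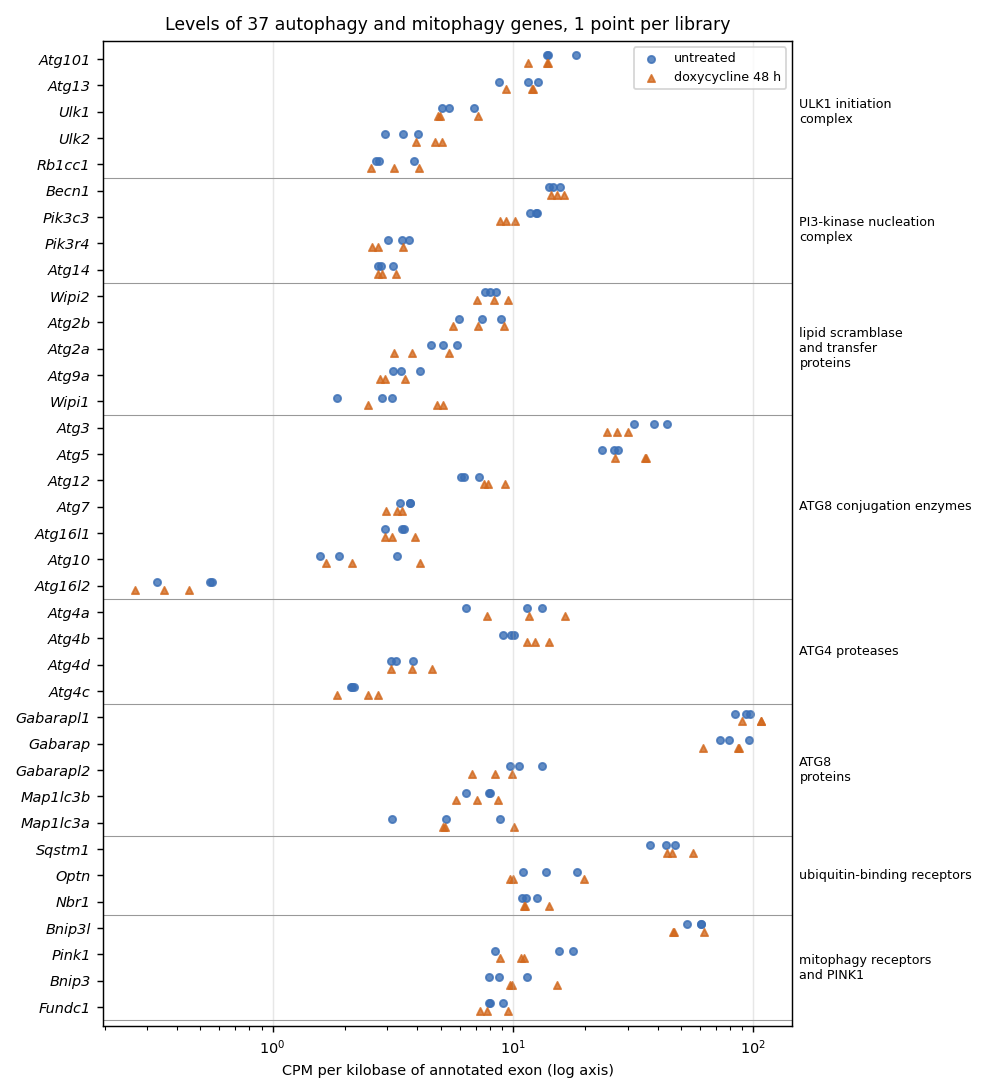
Levels of the 37 genes as CPM per kilobase of annotated exon, on a log axis, by role. Each circle is an untreated library and each triangle a doxycycline library. Gabarapl1 and Gabarap lie highest and Atg16l2, below 1, lowest, and the groups overlap for 33 of the 37 genes.

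Levels between genes were compared as CPM per kilobase, with the length of all annotated exons of a gene in GENCODE M21. In the untreated libraries Gabarapl1 stood at 91.7 CPM per kilobase on average, Gabarap at 82.9, Bnip3l at 58.1, Sqstm1 at 42.6, Atg3 at 38.1 and Atg5 at 25.7. The untreated library values of Gabarapl1 and Gabarap overlapped, as did those of Sqstm1 and Atg3 and those of Atg101 and Becn1, while each library of Gabarap lay above each of Bnip3l. Most of the others lay between 2.62 (Wipi1) and 15.4 (Atg101), and the lowest were Atg10 at 2.26, Atg4c at 2.15 and Atg16l2 at 0.479. The exon length joins all annotated isoforms, so the level of a gene with long alternative ends, such as Map1lc3b with its 7517 bases, depends on that choice.

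Of the 37 genes none was called without the block by edgeR's quasi-likelihood test at an adjusted p under 0.05, where 2.59% of all genes tested were, and none by DESeq2, which called 6.13% of all genes it tested. Without adjustment 3 genes, Pik3c3, Atg3 and Atg4b, had a p under 0.05, against 15.4% of all genes. With the block 5 of 37 were higher (13.5%, against 10.3% of all genes) and 4 lower (10.8%, against 15.6%), in all 24.3% against 25.8%. The share was thus close to that of all genes and is no result about autophagy genes. Leaving out both libraries of replicate number 1 left none of the 37 called, where 8.67% of all genes were, while leaving out number 2 gave 5 higher and 3 lower (24.1% of all genes), and number 3 gave 6 higher and 7 lower (33.4% of all genes). Each of these fits had 1 residual degree of freedom.

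The median size of the block log2 fold change, without its sign, was 0.19 for the 37 genes and 0.23 over all genes tested. The signed block log2 fold changes had a median of 0.018 and a middle range, from the lower to the upper quartile, of -0.18 to 0.19, against a median of -0.0021 and a range of -0.26 to 0.21 over all genes tested. No gene of the 37 changed by a log2 size of 1 or more, against 8.33% of all genes. With the block the 95% interval of all 37 lay between -1 and 1 (77.4% of all genes). Without it, that held for 31 of 37 (60.6% of all genes), the exceptions being Wipi1, Atg10, Atg16l2, Atg4a, Map1lc3a and Pink1. The pairs of equal replicate number went the same way in all 3 for 19 genes, 11 of them higher and 8 lower (51.4%, against 57.4% of all genes, 28% higher and 29.4% lower). In 4 genes the untreated and doxycycline ranges were apart, Atg12 and Atg4b higher and Pik3c3 and Atg3 lower (10.8%, against 20.6% of all genes, 8.88% higher and 11.7% lower).

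**Figure D2:**
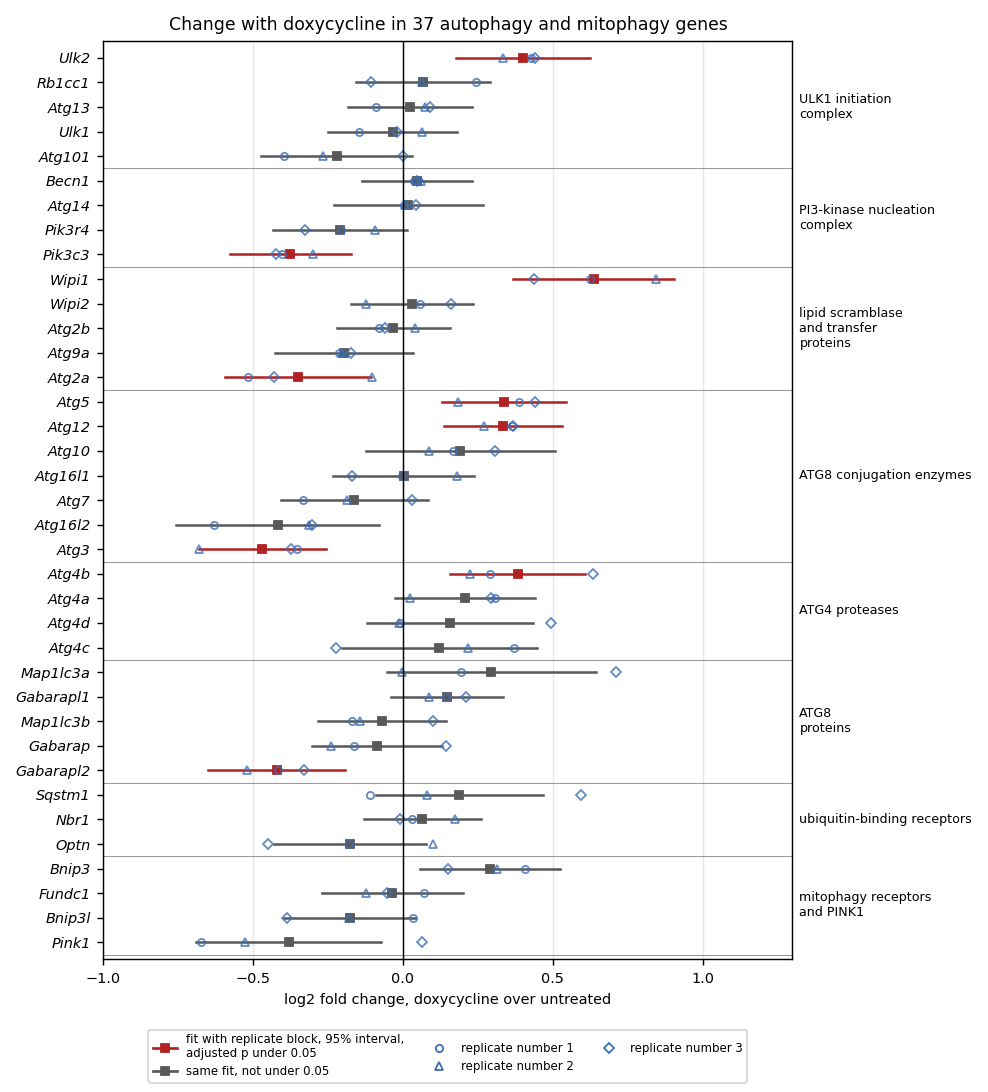
Log2 fold change with doxycycline for the 37 genes, by role. Squares and bars give the fit with the replicate block and its 95% interval, red where the adjusted p is under 0.05, and open symbols give the log2 ratio within each replicate number. The 9 red genes lie on both sides of 0, and no bar reaches -1 or 1.

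The ULK1 complex, which receives the signals from mTORC1 and AMPK, had 1 gene of 5, Ulk2, that passed with the block (20%, against 25.8% of all genes). None of the 5 passed without it (2.59% of all genes did). Here and in the roles below, counts among so few genes are no result about a role. Whether Ulk2 changed differently from the other 4 was not tested. Ulk2, the kinase related to ULK1, stood at 17.6, 24.2 and 20.9 CPM in untreated replicates 1, 2 and 3 and at 23.7, 30.4 and 28.4 CPM in doxycycline replicates 1, 2 and 3. It was higher with doxycycline in each pair, although the lowest doxycycline library lay below the highest untreated one. Its block log2 fold change was 0.40 (SE 0.10, block adjusted p = 0.016), and it was 0.40 (SE 0.18, adjusted p = 0.36) without the block. Ulk1, the kinase that starts autophagosome formation, stood at 35.2, 44.7 and 32.9 CPM untreated and 31.8, 46.6 and 32.4 CPM with doxycycline, with a block log2 fold change of -0.035 (SE 0.10, block adjusted p = 0.82). Replicate 2 was the highest library of both groups, and the interval of the change was -0.25 to 0.18. Atg101, which steadies ATG13 and had the highest level per length of the complex, stood at 29.3, 22.2 and 22.4 CPM untreated and 22.2, 18.5 and 22.4 CPM with doxycycline. It was lower in pairs 1 and 2 and level in pair 3, and did not pass (block log2 fold change -0.22, SE 0.11, adjusted p = 0.18). The scaffold genes Rb1cc1, which encodes FIP200, and Atg13 had block log2 fold changes of 0.067 and 0.024.

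In the class III PI3-kinase complex Pik3c3, the catalytic subunit VPS34, was the single gene of 4 that passed with the block (25%, against 25.8% of all genes). It stood at 52.4, 56.4 and 55.9 CPM in untreated replicates 1, 2 and 3 and at 39.6, 45.8 and 41.7 CPM in doxycycline replicates 1, 2 and 3. The groups did not overlap, and each pair fell, with log2 ratios of -0.40, -0.30 and -0.42. The block log2 fold change was -0.38 (SE 0.091, block adjusted p = 0.013), and -0.37 (SE 0.13, adjusted p = 0.23) without the block. Becn1, the Beclin 1 subunit and the gene of this complex with the highest level per length, stood at 99.5, 104 and 111 CPM untreated and 102, 108 and 115 CPM with doxycycline. Its 6 libraries lay close together and the block interval was -0.14 to 0.23. Pik3r4, the VPS15 subunit, had a block log2 fold change of -0.21 (SE 0.10, block adjusted p = 0.15), and Atg14, which directs the complex to autophagy, of 0.018 (SE 0.11, block adjusted p = 0.92). Whether Pik3c3 changed differently from the other subunits was not tested.

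Among the 5 genes of ATG9A, the ATG2 lipid transfer proteins and the WIPI proteins, Wipi1 rose and Atg2a fell with the block (40%, against 25.8% of all genes). Wipi1, which binds phosphatidylinositol 3-phosphate on the forming membrane, stood at 13.8, 12.6 and 8.16 CPM in untreated replicates 1, 2 and 3 and at 21.3, 22.7 and 11.0 CPM in doxycycline replicates 1, 2 and 3. It rose in each pair, yet both libraries numbered 3 were low and doxycycline replicate 3 lay below untreated replicates 1 and 2. The block log2 fold change was 0.64 (SE 0.12, block adjusted p = 0.0036), and 0.67 (SE 0.32, adjusted p = 0.40) without the block. Wipi2, its relative that recruits ATG16L1, stood at 84.6, 81.1 and 89.9 CPM untreated and 88.0, 74.5 and 100.4 CPM with doxycycline and did not pass (block log2 fold change 0.031, SE 0.092, adjusted p = 0.83). Atg2a, a lipid channel between the endoplasmic reticulum and the growing membrane, stood at 35.2, 44.8 and 39.4 CPM untreated and 24.6, 41.7 and 29.2 CPM with doxycycline. The pair numbered 2 moved least, with log2 ratios of -0.52, -0.10 and -0.43, and the block log2 fold change was -0.35 (SE 0.11, block adjusted p = 0.040). This call was lost with library totals in place of TMM and by DESeq2 with the block. Atg2b had a block log2 fold change of -0.033 and Atg9a, the lipid scramblase of the seed vesicles, of -0.20 (SE 0.10, block adjusted p = 0.19).

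The 7 conjugation genes were split, with 2 higher and 1 lower with the block (42.9%, against 25.8% of all genes). Atg3, the E2 enzyme that joins ATG8 proteins to lipid, stood at 122, 138 and 101 CPM in untreated replicates 1, 2 and 3 and at 95.2, 85.9 and 78.1 CPM in doxycycline replicates 1, 2 and 3. The groups did not overlap, and the fall was largest in the pair numbered 2 (-0.35, -0.68 and -0.37 in pairs 1, 2 and 3). Its block log2 fold change was -0.47 (SE 0.10, block adjusted p = 0.0053), and -0.48 (SE 0.16, adjusted p = 0.21) without the block. Atg5 and Atg12, whose products are joined to each other and help ATG3 act, were both higher with the block. Atg5 stood at 64.6, 55.3 and 61.8 CPM untreated and 84.4, 62.7 and 83.8 CPM with doxycycline, and doxycycline replicate 2 fell within the untreated range (block log2 fold change 0.34, SE 0.093, adjusted p = 0.024). Atg12 stood at 55.8, 48.4 and 46.9 CPM untreated and 71.7, 58.3 and 60.5 CPM with doxycycline, with no overlap of the groups (block log2 fold change 0.33, SE 0.088, adjusted p = 0.020). Atg16l1, the third part of their complex, did not pass (block log2 fold change 0.0022, SE 0.11, adjusted p = 0.99), with pairs on both sides of 0. Atg7, the E1 enzyme of both conjugation reactions, had a block log2 fold change of -0.16 (SE 0.11, block adjusted p = 0.31), and Atg10, the E2 enzyme of ATG12, of 0.19 (SE 0.14, block adjusted p = 0.35). Atg16l2, a relative of Atg16l1 at the lowest level per length of the 37, was lower in each pair and did not pass (block log2 fold change -0.42, SE 0.15, adjusted p = 0.069).

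Of the 4 ATG4 proteases, which trim ATG8 proteins and free them from lipid, Atg4b was higher with the block (25%, against 25.8% of all genes). It stood at 84.0, 81.2 and 75.5 CPM in untreated replicates 1, 2 and 3 and at 103, 94.9 and 117 CPM in doxycycline replicates 1, 2 and 3. The groups did not overlap, and the pair numbered 3 rose most (0.29, 0.23 and 0.63). The block log2 fold change was 0.38 (SE 0.10, block adjusted p = 0.020), and 0.39 (SE 0.14, adjusted p = 0.23) without the block. Atg4a, which had the highest untreated mean level per length of the proteases, stood at 35.3, 30.5 and 17.0 CPM untreated and 43.7, 31.0 and 20.8 CPM with doxycycline. Per length its untreated libraries overlapped those of Atg4b, and with doxycycline Atg4b had the higher mean (12.7 against 12.0 CPM per kilobase). Libraries of Atg4a numbered 1 were high and those numbered 3 low in both groups, and Atg4a did not pass (block log2 fold change 0.21, SE 0.10, adjusted p = 0.17). Atg4c and Atg4d had block log2 fold changes of 0.12 and 0.16 and pairs on both sides of 0.

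**Figure D3:**
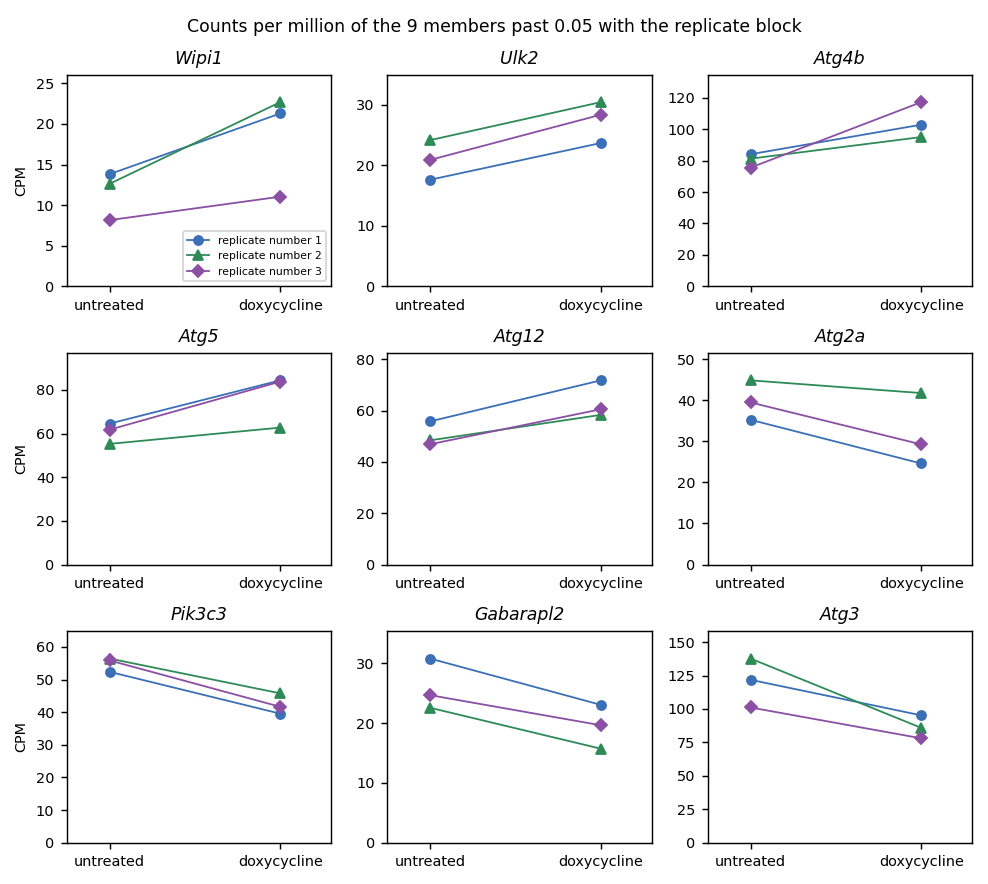
CPM of the 9 genes with an adjusted p under 0.05 in the fit with the replicate block. Each line joins the untreated and the doxycycline library of the same replicate number, and each axis starts at 0. All lines of Wipi1, Ulk2, Atg4b, Atg5 and Atg12 rise and all lines of Atg2a, Pik3c3, Gabarapl2 and Atg3 fall, while the groups overlap in Wipi1, Ulk2, Atg5, Atg2a and Gabarapl2.

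Of the 5 ATG8 genes Gabarapl2 fell with the block (20%, against 25.8% of all genes) and the 2 most abundant did not pass. Gabarapl2, which encodes the protein also called GATE-16, stood at 30.8, 22.6 and 24.7 CPM in untreated replicates 1, 2 and 3 and at 23.1, 15.7 and 19.7 CPM in doxycycline replicates 1, 2 and 3. It was lower in each pair, and doxycycline replicate 1 lay within the untreated range. The block log2 fold change was -0.42 (SE 0.10, block adjusted p = 0.014), and -0.42 (SE 0.20, adjusted p = 0.40) without the block. Gabarapl1, the gene with the highest level per length of the 37, stood at 196, 169.7 and 188 CPM untreated and 216, 180.3 and 217 CPM with doxycycline and had a block interval of -0.038 to 0.33. Gabarap stood at 178, 135 and 146 CPM untreated and 159, 114 and 161 CPM with doxycycline, with pairs on both sides of 0 (block log2 fold change -0.087, SE 0.10, adjusted p = 0.54). Map1lc3b, the LC3B gene whose product is the usual marker of autophagosomes, stood at 60.1, 48.0 and 60.5 CPM untreated and 53.4, 43.5 and 64.9 CPM with doxycycline. Its groups overlapped and its block interval was -0.28 to 0.14. Map1lc3a stood at 10.5, 6.19 and 3.70 CPM untreated and 12.0, 6.18 and 6.05 CPM with doxycycline, with untreated replicate 3 the lowest, and did not pass (block log2 fold change 0.30, SE 0.16, adjusted p = 0.19).

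None of the 3 receptors that bind ubiquitin and ATG8 proteins passed in either fit. Over all genes 25.8% passed with the block and 2.59% without it. Sqstm1, which encodes p62 and had the highest level per length of the 3, stood at 159, 146 and 125 CPM in untreated replicates 1, 2 and 3 and at 147, 154 and 189 CPM in doxycycline replicates 1, 2 and 3. Only the pair numbered 3 moved by more than a log2 size of 0.2, with log2 ratios of -0.11, 0.080 and 0.60, and the block log2 fold change was 0.19 (SE 0.13, block adjusted p = 0.30). Nbr1 stood at 74.9, 86.4 and 77.7 CPM untreated and 76.5, 97.4 and 77.1 CPM with doxycycline (block log2 fold change 0.064, SE 0.088, adjusted p = 0.63). Optn, optineurin, which also serves PINK1-dependent mitophagy, stood at 41.4, 69.5 and 51.4 CPM untreated and 36.5, 74.5 and 37.6 CPM with doxycycline. Both libraries numbered 2 were high, and it did not pass (block log2 fold change -0.18, SE 0.11, adjusted p = 0.28).

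The 4 mitophagy genes did not pass in either edgeR fit, where 25.8% of all genes passed with the block and 2.59% without it. Bnip3l stood at 235, 204 and 233 CPM in untreated replicates 1, 2 and 3 and at 239.9, 180.5 and 179 CPM in doxycycline replicates 1, 2 and 3. The pair numbered 1 was level and those numbered 2 and 3 were lower, with log2 ratios of 0.033, -0.18 and -0.39. The block log2 fold change was -0.18 (SE 0.10, block adjusted p = 0.21) with an interval of -0.40 to 0.041, which reaches further below 0 than above it. Bnip3, its relative that hypoxia induces, stood at 26.0, 18.0 and 19.9 CPM untreated and 34.5, 22.4 and 22.1 CPM with doxycycline and was higher in each pair (block log2 fold change 0.29, SE 0.10, adjusted p = 0.067). With the block it passed under RLE scaling, the size factors of DESeq2, and in the DESeq2 fit. Pink1, the kinase that labels damaged mitochondria for the ligase Parkin, stood at 47.5, 41.7 and 22.5 CPM untreated and 29.8, 28.9 and 23.5 CPM with doxycycline. Untreated replicate 3 was as low as the doxycycline libraries, and Pink1 did not pass (block log2 fold change -0.38, SE 0.14, adjusted p = 0.070). Fundc1, a receptor of the outer mitochondrial membrane, had a block log2 fold change of -0.036 (SE 0.11, block adjusted p = 0.83).

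Differences between replicate numbers were about as frequent in these genes as over all genes tested. In the block fit 16 of 37 differed between the 3 numbers at an adjusted p under 0.05 (43.2%, against 43.3% of all genes tested). For 30 of 37 the range of the mean log2 CPM over the numbers was larger than the size of the doxycycline change (81.1%, against 75.6% of all genes). Both shares are near those of all genes and are no result about these 37. The range over 3 numbers and the difference between the groups are also unlike measures. Such a range tends to be the larger even with no real difference. The range was 1.24 for Map1lc3a and 1.06 for Atg4a, both highest in number 1 and lowest in number 3, and 1.18 for Atg10, highest in number 3. Optn had a range of 0.889, with number 2 highest, and Wipi1 one of 0.854, with number 3 lowest. The adjusted p of these 5 for the replicate number lay between 6.9e-04 and 0.0026. At the other end stood Sqstm1 with a range of 0.0362 and Atg7 with 0.0701. The range is taken on the mean of both libraries of a number, so opposite trends cancel. Over numbers 1 to 3 Sqstm1 fell untreated (159, 146 and 125 CPM) and rose with doxycycline (147, 154 and 189 CPM). Its small range thus does not mean a steady level. Slc4a1 had a range of 2.86, highest in number 3, and Hba-a1, an alpha globin gene, one of 1.92, also highest there. The summed megakaryocyte markers, like Map1lc3a and Atg4a, were highest in number 1 and lowest in number 3 of both groups. The part of these cells and transcripts in the differences between numbers was not tested.

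**Figure D4:**
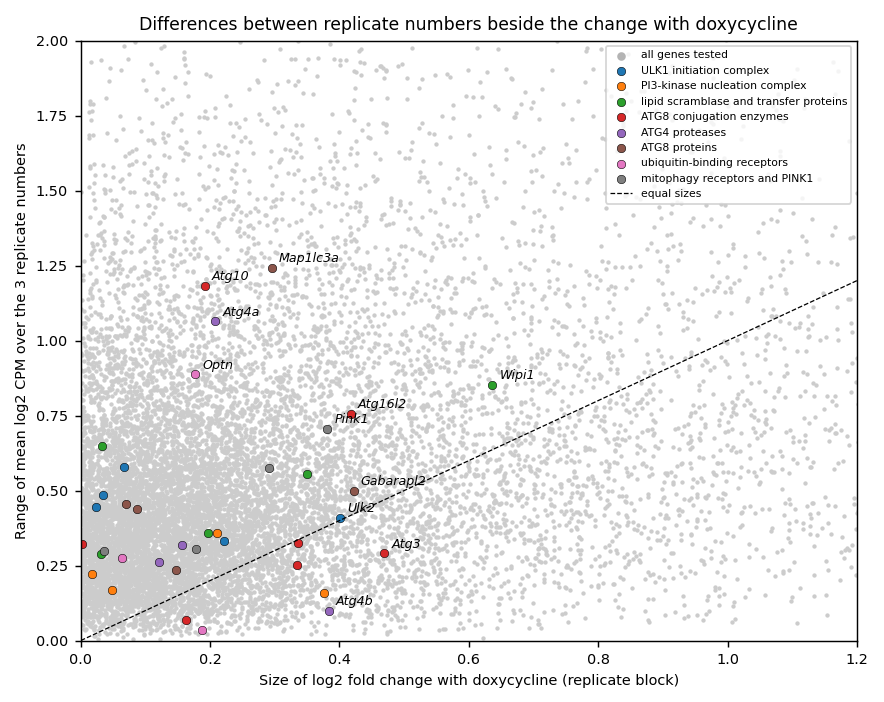
Range of the mean log2 CPM over the 3 replicate numbers against the size of the log2 fold change with doxycycline in the fit with the block. Coloured points are the 37 genes by role, grey points all genes tested that fall inside the axes (13023, with 1135 outside), and the dashed line marks equal sizes. Map1lc3a, Atg10, Atg4a and Optn lie far above the line, and Atg3, Pik3c3 and Atg4b below it.

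Some of the 37 share sequence or exons with other genes, and the kit used for these libraries keeps no strand. Exons of Becn1 overlap those of Cntd1 over 43.9% of their length, those of Atg9a overlap Gm29253 and Ankzf1, those of Atg4d overlap Kri1 and those of Sqstm1 overlap Mrnip. Gabarapl1 shares 28.3% of its exon length with the non-coding gene 1700101I11Rik. Transcripts of Atg4a and Bnip3 were matched over 96.0% and 94.2% of their length, at 97% identity or more, by pseudogenes or predicted genes such as Atg4a-ps and Gm6532. Bnip3l was matched over 34.7% by Bnip3l-ps and Gabarapl2 over 20.9% by Gm3724 or Gm6051. The split of reads between these partners is uncertain. Of the 9 genes that passed with the block, Gabarapl2 was the one with such a partner. In GRCm38 (GENCODE M21) Wipi1 lies on chromosome 11 from 109573331 to 109611967 on the minus strand, Ulk2 on chromosome 11 from 61775649 to 61855073 on the minus strand, Atg4b on chromosome 1 from 93751500 to 93790610 on the plus strand, Atg5 on chromosome 10 from 44268358 to 44364291 on the plus strand and Atg12 on chromosome 18 from 46730144 to 46741580 on the minus strand. Atg3 lies on chromosome 16 from 45158785 to 45188538 on the plus strand, Gabarapl2 on chromosome 8 from 111940703 to 111953612 on the plus strand, Pik3c3 on chromosome 18 from 30272747 to 30348126 on the plus strand and Atg2a on chromosome 19 from 6241668 to 6262335 on the plus strand. All 9 are protein coding.

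The rest of the pathway was read from 6 lists of 92 other genes, of which 90 were in the table and 86 tested. Of these 86, 3 fell and none rose without the block, where edgeR called 2.18% of all genes lower and 0.417% higher, and DESeq2 called 4 lower and 2 higher. With the block 18 fell and 8 rose (30.2%, against 25.8% of all genes). The lists are short and were chosen with earlier results of these data known. Their shares, here and below, are therefore no result about the pathway. Wdr45b, the WIPI3 gene, was the clearest case. It stood at 89.3, 68.7 and 73.1 CPM in untreated replicates 1, 2 and 3 and at 39.1, 29.5 and 35.2 CPM in doxycycline replicates 1, 2 and 3. The groups did not overlap, each pair fell by more than 1 on the log2 scale, and the log2 fold change was -1.15 (SE 0.17, adjusted p = 0.022) without the block and -1.16 (SE 0.091, block adjusted p = 1.7e-05) with it. Tax1bp1, a ubiquitin-binding receptor related in function to p62, stood at 179, 239 and 208 CPM in untreated replicates 1, 2 and 3 and at 107, 136 and 109 CPM in doxycycline replicates 1, 2 and 3. Its log2 fold change was -0.83 (SE 0.16, adjusted p = 0.0496) without the block and -0.83 (SE 0.086, block adjusted p = 8.7e-05) with it. Sesn3, a sestrin that restrains mTORC1, stood at 0.713, 1.05 and 1.25 CPM untreated and 0.241, 0.175 and 0.351 CPM with doxycycline, a low level, with a log2 fold change of -1.97 (SE 0.37, adjusted p = 0.043) without the block. With any single library left out, at most 1 of the 86 was called. Over all genes those fits called between 0 and 26 higher and between 35 and 242 lower.

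Of 15 other phagophore genes 1 rose and 4 fell with the block (33.3%, against the 25.8% of all genes). Sh3glb1, which binds the Beclin 1 complex, was the one that rose (block log2 fold change 0.40, SE 0.084, adjusted p = 0.0065), and Tecpr1 (block log2 fold change -1.16, SE 0.17, adjusted p = 8.7e-04), Wdfy3 (block log2 fold change -0.84, SE 0.15, adjusted p = 0.0025) and Nrbf2 (block log2 fold change -0.50, SE 0.11, adjusted p = 0.010) fell beside Wdr45b. Of 13 genes of fusion with the lysosome 1 rose and 4 fell (38.5%). The SNARE gene Stx17 rose (block log2 fold change 0.36, SE 0.10, adjusted p = 0.024), and Vps18 (block log2 fold change -0.59, SE 0.11, adjusted p = 0.0026) and Vps11 (block log2 fold change -0.30, SE 0.089, adjusted p = 0.030) of the HOPS tether fell, as did Plekhm1 (-0.37) and Vamp8 (-0.29). Of 10 other cargo receptors tested Tollip, an adaptor that binds ubiquitin, rose, at 123, 118 and 117 CPM untreated and 172, 165 and 163 CPM with doxycycline (block log2 fold change 0.48, SE 0.082, adjusted p = 0.0019), and Tax1bp1, Ncoa4 (-0.41) and Calcoco1 (-0.47) fell, in all 40% of the list. The log2 ratio of Tollip was nearly the same in each pair, 0.48, 0.48 and 0.48.

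Of 15 other mitophagy genes 2 rose with the block and none fell (13.3%, against 25.8% of all genes). March5, a ubiquitin ligase of the outer mitochondrial membrane, stood at 161, 161 and 149 CPM untreated and 258, 193 and 225 CPM with doxycycline, with no overlap of the groups (block log2 fold change 0.51, SE 0.10, adjusted p = 0.0043), and Usp15, a deubiquitinase that opposes Parkin, had a block log2 fold change of 0.27 (SE 0.090, block adjusted p = 0.049). Of 27 tested genes of mTORC1 and AMPK control 2 rose, Rheb, the GTPase that activates mTORC1 (block log2 fold change 0.45, SE 0.10, adjusted p = 0.0094), and Sesn2 (block log2 fold change 0.60, SE 0.16, adjusted p = 0.022), and 5 fell, in all 25.9% of the list. The fallers were Sesn3, Lamtor4 (block log2 fold change -0.58, SE 0.12, adjusted p = 0.0063), Tsc2 (block log2 fold change -0.39, SE 0.087, adjusted p = 0.0091), Mtor (block log2 fold change -0.39, SE 0.11, adjusted p = 0.023) and Tsc1 (block log2 fold change -0.35, SE 0.11, adjusted p = 0.034). This list held activators and inhibitors of mTORC1 on both sides.

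Of 6 tested transcription factors of autophagy genes 1 rose and 2 fell with the block (50%, against 25.8% of all genes). Among 6 genes this share is no result about the list. Tfe3, a relative of TFEB, stood at 54.1, 63.0 and 59.0 CPM in untreated replicates 1, 2 and 3 and at 29.2, 37.7 and 40.9 CPM in doxycycline replicates 1, 2 and 3. It was lower in each pair with no overlap of the groups, and its block log2 fold change was -0.72 (SE 0.10, block adjusted p = 6.2e-04). Without the block it was -0.71 (SE 0.17, adjusted p = 0.087). Tfeb stood at 23.5, 23.3 and 10.6 CPM untreated and 14.5, 21.04 and 8.11 CPM with doxycycline, with both libraries numbered 3 low (block log2 fold change -0.41, SE 0.13, adjusted p = 0.041). Foxo3, a forkhead factor that activates autophagy genes in erythroid cells, stood at 61.5, 94.2 and 98.3 CPM untreated and 76.8, 126 and 123 CPM with doxycycline and was higher in each pair (block log2 fold change 0.35, SE 0.084, adjusted p = 0.013). Gata1, which also activates them there, had a block log2 fold change of -0.040 (SE 0.088, block adjusted p = 0.77), and Foxo4 of -0.19, while Zkscan3, a repressor of autophagy genes, had a block interval of -0.63 to 0.63. Mitf and Foxo1 did not pass the filter on low counts.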

How the data were processed

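The 6 libraries were made with the Illumina TruSeq RNA v2 kit, per the labels' protocols. The authors deposited whole-number read counts per gene symbol. Among the names in the submitters' processing notes are STAR, DESeq2, bcl2fastq 2.17.1.14, mm10 and GRCm38, with no roles. Which program counted the reads, on which annotation and with which strand setting, is not given in the sources used here. No deposited count was below 1 in any column, as if 1 had been added throughout. The counts were used as they are, and taking off 1 was an alternative. Between libraries the mean chi-square per gene was 145 to 550, so none was a copy of another.

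The main test was the two-sided quasi-likelihood F test of edgeR 4.0.16 (with limma 3.58.1 in R 4.3.3), using TMM factors, filterByExpr, a group term and Benjamini-Hochberg adjustment over all 14158 genes tested, at a threshold of 0.05. The SE is |log2 fold change| / √F, and 95% intervals use the total degrees of freedom of the fit. Adding the replicate number as a block lowered the residual degrees of freedom from 4 to 2. Pairing comes from the data and not from the labels, which do not explain the numbers: deviations from the group means of same-numbered libraries correlated at 0.77, 0.74 and 0.72 across genes for numbers 1, 2 and 3. Other alternatives were DESeq2 1.42.0, RLE factors, library totals, no filter and leaving out each library. Near-identical transcripts were found with blastn 2.17.0 at 97% identity over at least 100 bases. The scripts were tested on simulated data.

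The members and the lists were chosen with earlier results of these data known. By the rule for named genes, those under 0.05 with or without the block and the one with the highest level per length in each role are given in every library. Of each other list up to 4 genes with the smallest block adjusted p are named, and the transcription factors in full. Nrbf2, Vamp8, Sesn2, Mtor and Tsc1 are outside that rule and were added after their values were seen. Ulk1, Gabarap, Map1lc3b, Map1lc3a, Nbr1, Optn, Bnip3 and Pink1 are also given in every library, outside the rule.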

Additional observations from a re-analysis of the deposited data

How the results depend on the processing

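No gene of the 37 passed under RLE factors, library totals, no filter, 1 taken off every count, DESeq2, or without any single library (range 0 to 0 in both directions). These fits also called few of all genes (6.13% by DESeq2, the others below), so none of 37 is no result about these genes. The replicate block gave 5 higher and 4 lower (25.8% of all genes were called). DESeq2 with the block gave 6 and 3, with Bnip3 added and Atg2a lost, and called 23.1% of all genes it tested. The median log2 fold change of the 37 was 0.017, and 0.085 by DESeq2 with and without the block, which moved the median of all genes to 0.065 and 0.072. It was between -0.026 and 0.047 without single libraries. Of the other pathway genes the block called 8 higher and 18 lower, DESeq2 called 2 higher, DESeq2 with the block 12 higher and 11 lower, and no filter 1 lower, against 0 and 3. Without single libraries these counts lay between 0 and 0 and between 0 and 1. Over all genes 59 were higher and 308 lower (2.59% in all). RLE factors gave 59 and 301, library totals 58 and 304, no filter 43 and 282, and 1 taken off every count 59 and 300. The block gave 1452 and 2206, DESeq2 294 and 636, and DESeq2 with the block 1736 and 1660. Single libraries left out gave between 0 and 26 higher and between 35 and 242 lower. The cause of these differences between settings was not tested.

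Some checks of the block were added after the data were examined. All 9 genes kept their sign in each of 8 settings with the block. Each lost its call without replicate number 1, Gabarapl2 also without number 2, and Atg2a also with library totals and by DESeq2. Pink1 was added with no filter. Without replicate number 3 the calls were 6 higher and 7 lower (33.4% of all genes), and 8.67% of all genes were called without number 1. Signs of uncalled genes changed for 4 to 7 of the 37 when a single library was left out. Counting error was not set against the spread between cultures.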

Other observations

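Rragd, the RagD GTPase gene that TFEB and TFE3 are known to activate, was too low for the test, yet its deposited counts were 2, 5 and 89 without doxycycline and 4, 7 and 180 with it, in the order of replicate numbers 1 to 3. Both libraries numbered 3 thus stood above the other 4. In those same libraries Tfeb was lowest and Slc4a1 highest. Rragd was singled out after its counts were seen. Of the other pathway genes below the filter, Foxo1 had counts of 1, 12 and 6 untreated and 1, 2 and 2 with doxycycline, Stbd1 between 1 and 6 and Mitf 1 or 2 in every library. Prkaa2 and Rragb were not analysed here.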
